A study of Mus musculus with 6 samples.

Results

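Glutamate, GABA and glycine receptor genes were followed in N2A cells, a mouse neuroblastoma line, after knockdown of the POU-domain transcription factor gene Pou3f3. The set held 46 of the 19938 gene symbols measured. It comprised 23 glutamate receptor genes (4 AMPA, 5 kainate, 1 delta, 6 NMDA and 7 metabotropic) and 23 GABA and glycine receptor genes (5 GABA-A alpha, 2 beta, 2 gamma, 4 of other GABA-A classes, 3 rho, 2 GABA-B and 5 glycine). The rule that picked them used gene symbols and no measured value, and the set was proposed with earlier results of these data known. A symbol with several array rows was read from the row with the highest mean over all arrays, which concerned Gabrb2 alone. Receptor genes whose row carried no symbol or more than 1 were not analysed here.

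The comparison was between 3 arrays of N2A cells given a non-targeting shRNA vector and 3 arrays of N2A cells given a vector whose shRNA targets Pou3f3. In both groups 1.5 µg of construct was delivered by transient transfection and total RNA was taken 2.5 days later. No stable line was selected. N2A is 1 line, and the p-values describe the spread between its cultures only. Levels are log2 values of Affymetrix Mouse Gene 1.0 ST arrays and every difference is knockdown minus control on that log2 scale.

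Glutamate is the main excitatory transmitter of the brain. AMPA and kainate receptors are cation channels that open when glutamate binds, NMDA receptors also admit calcium and need glycine or D-serine as a co-agonist, and metabotropic glutamate receptors act through G proteins. GABA and glycine open chloride channels assembled from GABA-A or glycine receptor subunits, and GABA-B receptors couple to G proteins as a dimer of the Gabbr1 and Gabbr2 products. Each channel is built from several subunits, so a receptor needs the transcripts of all its obligatory parts.

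Promoter sequence was examined because POU-domain factors are known to bind an octamer, ATGCAAAT on one strand and ATTTGCAT on the other. RefSeq windows reaching from 250 bases before to 50 bases after the annotated start (GRCm38.p6) were found for 35 of the 46 genes, in 42 windows. None of the 42 windows contained the octamer, against 1.735% of the windows of all genes (570 of 32851). This says only that these letters are not in these windows. The sequences below are the 250 bases upstream of the start, 5′ to 3′ on the strand of the gene, with each CG dinucleotide in capitals. They are shown for the 4 receptor genes whose mean array values passed the 99th percentile of olfactory receptor rows (Gabbr1, Grik5, Gria2 and Grin2d) and, for contrast, for the low-valued Gabra2, which was picked after its values were seen. Their positions are chr17:37045716-37045965 (plus strand) for Gabbr1, chr7:25072370-25072619 (minus strand) for Grik5, chr3:80802836-80803085 (minus strand) for Gria2, chr7:45866682-45866931 (minus strand) for Grin2d and chr5:71095850-71096099 (minus strand) for Gabra2.
Gabbr1: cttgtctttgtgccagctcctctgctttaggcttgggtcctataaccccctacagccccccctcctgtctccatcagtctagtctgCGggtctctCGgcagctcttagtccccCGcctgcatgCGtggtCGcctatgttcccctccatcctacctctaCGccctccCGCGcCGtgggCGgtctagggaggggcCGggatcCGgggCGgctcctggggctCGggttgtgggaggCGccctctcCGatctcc
Grik5: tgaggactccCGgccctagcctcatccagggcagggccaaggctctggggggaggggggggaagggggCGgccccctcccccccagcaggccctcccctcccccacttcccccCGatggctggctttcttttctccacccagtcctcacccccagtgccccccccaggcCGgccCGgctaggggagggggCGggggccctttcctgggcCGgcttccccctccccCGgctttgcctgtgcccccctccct
Gria2: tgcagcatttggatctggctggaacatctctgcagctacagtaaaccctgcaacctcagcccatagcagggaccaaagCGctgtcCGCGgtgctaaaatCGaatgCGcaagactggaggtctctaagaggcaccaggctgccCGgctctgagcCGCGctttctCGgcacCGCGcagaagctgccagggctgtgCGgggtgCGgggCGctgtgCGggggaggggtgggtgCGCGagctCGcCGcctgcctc
Grin2d: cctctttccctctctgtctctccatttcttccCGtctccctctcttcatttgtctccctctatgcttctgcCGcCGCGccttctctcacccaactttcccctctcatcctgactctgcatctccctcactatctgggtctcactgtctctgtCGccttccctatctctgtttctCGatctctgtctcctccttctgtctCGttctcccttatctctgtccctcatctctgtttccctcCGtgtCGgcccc
Gabra2: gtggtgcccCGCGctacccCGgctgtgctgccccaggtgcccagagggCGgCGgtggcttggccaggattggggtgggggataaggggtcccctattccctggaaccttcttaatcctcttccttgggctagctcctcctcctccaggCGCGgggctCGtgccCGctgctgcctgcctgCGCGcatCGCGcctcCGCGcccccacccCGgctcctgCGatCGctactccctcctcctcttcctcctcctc
The stretch held 16 CG dinucleotides for Gabbr1, 8 for Grik5, 19 for Gria2, 9 for Grin2d and 18 for Gabra2. A CG-rich start was thus present at genes with high and with low array values. Taking for each gene the window with the most CG, the median was 9 for the receptor genes (range 0 to 42) and 6 for all 27025 genes of the table. It was 15 (range 1 to 42) for the 11 receptor genes with a window whose values passed the gauge described next, and 9 (range 0 to 36) for the 24 that did not.

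Most receptor genes had array values in the range taken by genes that are not expected to be transcribed in these cells. Olfactory receptor genes, which are used by sensory neurons of the nose, served as a rough gauge, since a row's value also depends on its own probes. The mean over the 6 arrays had a 95th percentile of 7.36 and a 99th percentile of 8.05 among 1035 olfactory receptor rows, and the highest of these reached 9.81. Of the 46 receptor genes, 13 lay above the 95th percentile and 33 did not, where 13500 of all 19938 symbols lay above it. The receptor count was 4 with the 99th percentile and 28 with the 95th percentile of 175 vomeronasal receptor rows, so it depends strongly on the gauge.

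The 4 genes above the 99th percentile were Gabbr1 (mean level 11.40), Grik5 (10.45), Gria2 (9.86) and Grin2d (8.47). Gabbr1 encodes the GABA-binding subunit of the GABA-B receptor, Grik5 a kainate receptor subunit that needs a partner to form a channel, Gria2 the AMPA receptor subunit that limits calcium entry, and Grin2d an NMDA receptor subunit prominent in early development. A further 9 genes lay between the 2 percentiles, with levels from 7.56 (Grm6) to 8.03 (Gabrd and Grm2). Of these, Gabbr2 (7.69) is the obligatory partner of Gabbr1. None of the 5 alpha, 2 beta and 2 gamma subunit genes of the GABA-A receptor, nor any of the 5 glycine receptor genes, passed the 95th percentile. Their levels ran from 4.74 for Glra3 to 6.83 for Gabrg3.

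**Figure D1:**
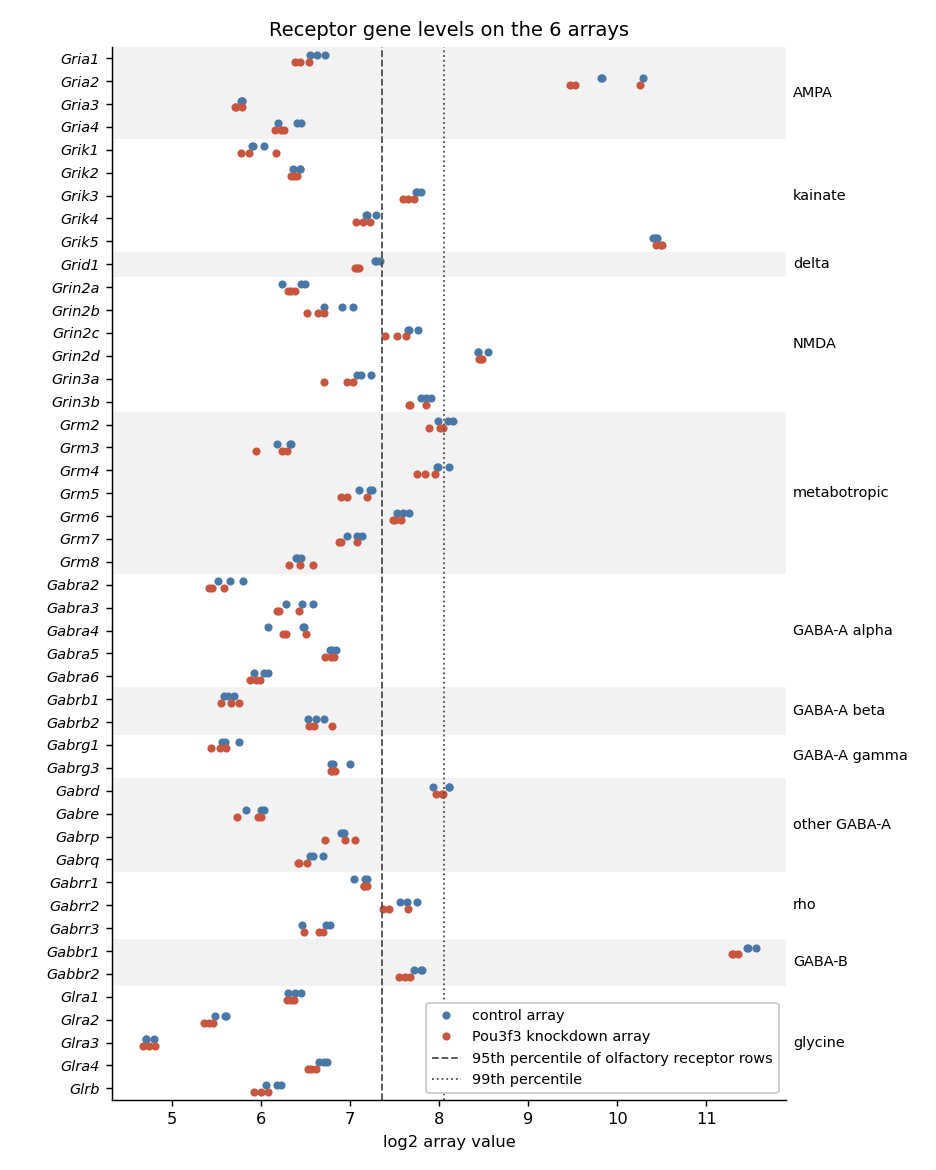
Log2 array values (horizontal axis) of the 46 receptor genes by family (vertical axis); each point is 1 array, blue for control and red for Pou3f3 knockdown, and the dashed and dotted lines are the 95th (7.36) and 99th (8.05) percentile of olfactory receptor rows. Gabbr1, Grik5, Gria2 and Grin2d lie to the right of both lines, and 33 genes have means to the left of the dashed line.

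The array medians over all rows were 8.01, 7.99 and 7.97 in control and 7.97, 7.90 and 7.95 in knockdown. Over rows with 1 symbol they were 8.58, 8.59 and 8.62 against 8.58, 8.61 and 8.59. Median centring, an alternative scaling used below, took the medians over all rows, which were mostly lower in knockdown. Pou3f3, the target of the shRNA, read 8.37, 8.30 and 8.47 on control arrays and 8.20, 8.09 and 8.35 on knockdown arrays, so the groups overlapped although the knockdown value was lower within each replicate number. Its difference of -0.16 ± 0.08 (SE) did not pass the test (limma adjusted p = 0.303, or 0.0880 with the replicate number as a block). Separately from the arrays, the study reported a reduced Pou3f3 transcript level by qRT-PCR after transfection of its Pou3f3 shRNA vector. All 11 measured markers of neuroblastoma and sympathetic neurons lay above the gauge in mean level (9.71 to 13.76), as did 13500 of all 19938 symbols. Among the markers, the noradrenaline-synthesis gene Dbh fell by 1.17 (limma adjusted p = 0.00471). Th, another gene of that pathway, was called lower only with the replicate number as a block (-0.38, limma adjusted p = 0.0420, or 0.133 without the block). Of the 11 markers, 8 were below 0 under each scaling. Their median was -0.18 on the deposited scale, -0.13 after median centring and -0.21 after cyclic loess. For 6 of the 11 the groups did not overlap, with all knockdown arrays lower, where the background over all symbols was 15.2%. Chga, Chgb and Gata3 differed by -0.35, -0.38 and -0.33 (limma adjusted p = 0.0628, 0.0456 and 0.0484), short of the fold cut-off. Above the gauge were also 2 of 6 astrocyte markers (range over the list 6.50 to 9.06), 3 of 4 Schwann cell and oligodendrocyte markers (7.14 to 8.35) and 4 of 6 fibroblast markers (4.94 to 8.80), and none of these was called. The part of the markers in the receptor differences was not tested. In RNA from whole cultures, fewer cells of a type and less RNA per cell cannot be told apart.

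No receptor gene changed by the thresholds used, an adjusted p under 0.1 across all rows with 1 gene symbol and a fold of at least 1.3 (0.38 on the log2 scale). None of the 46 was called lower, where the background over all symbols was 0.657%, and none was called higher, where it was 1.35%. With the replicate number as a block, which compares arrays of the same number, none was called either (background 0.722% lower and 1.78% higher). The differences were small, from -0.27 for Grin2b to 0.05 for Grik5. For 42 of the 46 genes the whole 95% confidence interval lay within 1.3-fold in either direction. The other 4 were Gria2, Grin2b, Grin3a and Gabra3, whose intervals reached down to -0.68, -0.48, -0.45 and -0.39 respectively.

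**Figure D2:**
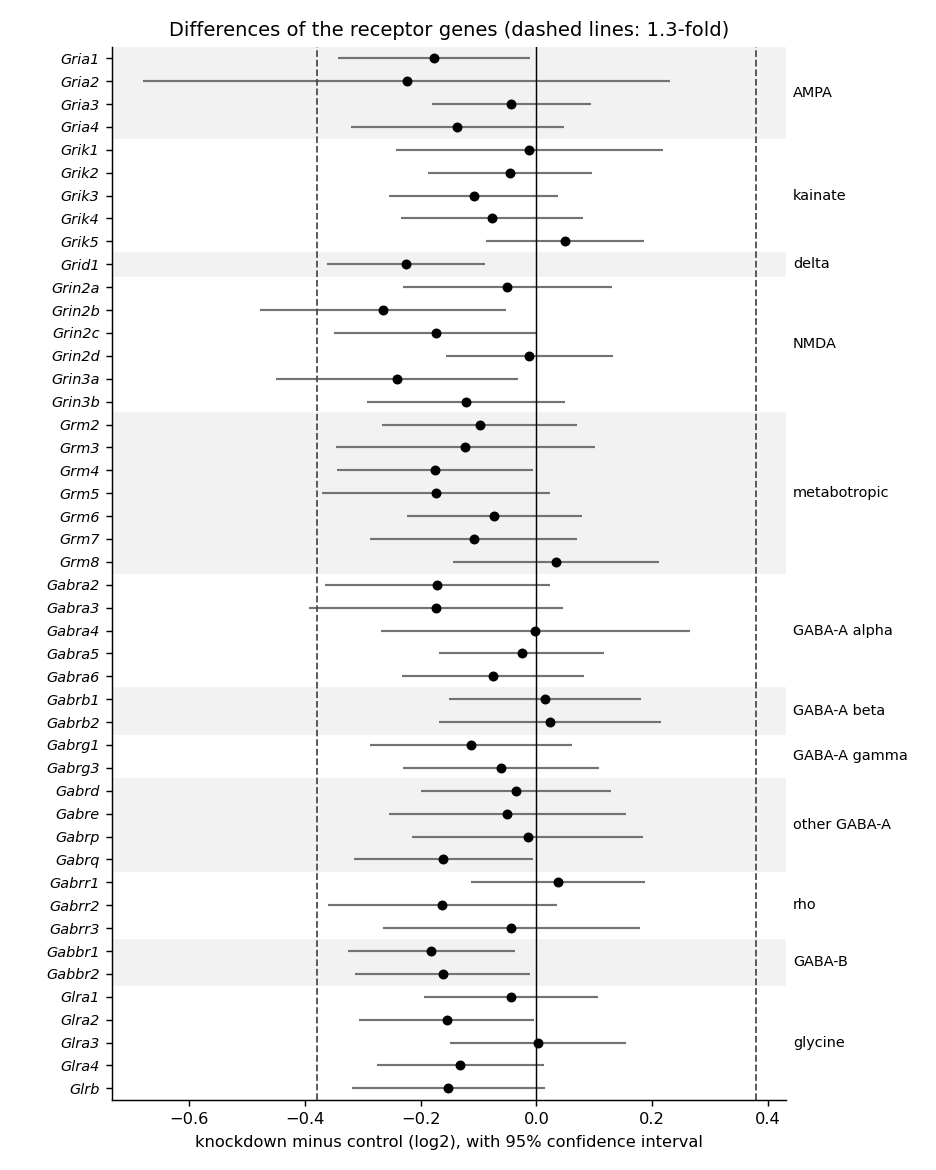
Difference between knockdown and control (log2, horizontal axis) for each receptor gene, grouped by family; points are limma estimates from 3 control and 3 knockdown arrays, bars are 95% confidence intervals and dashed lines mark 1.3-fold. The estimates run from -0.27 to 0.05, and 4 intervals (Gria2, Grin2b, Grin3a and Gabra3) cross the dashed line on the left.

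Although no gene was called, the differences lay mostly on the lower side. Of the 46 genes, 40 were below 0, where the background was 57.8%, and the median was -0.10 against -0.03 for all symbols. This count depends on the scaling, and so does its background. It was 30 (65.2%) when each array was centred on its median over all rows, where the background was 43.2%. After cyclic loess it was 29 (63%), where the background was 50.9%. The medians were then -0.05 and -0.04 (0.02 and -0.00 for all symbols). At an unadjusted p under 0.05, 9 genes were lower and none higher (background 10.2% and 9.62%). The 3 knockdown arrays lay entirely below the 3 control arrays for 12 genes, or 26.1%, and entirely above for none (background 15.2% and 10.9%). At low levels the background itself had few genes on the higher side. Of the 6438 symbols not above the gauge, 559 were lower and 86 higher at an unadjusted p under 0.05. For 1009 of them the knockdown arrays lay entirely below, and for 155 entirely above. Arrays of the same number gave median differences over the receptor genes of -0.10, -0.14 and -0.03.

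On the deposited scale, low-valued genes in general shared this lower side, and other scalings reduced it in both. Among the 33 receptor genes not above the 95th percentile of olfactory receptor rows, 28 were below 0 with a median of -0.07. The count was 20 after median centring and 19 after cyclic loess, with medians of -0.02 and -0.00. Of all 6438 symbols in that range, 74.8% were below 0 with a median of -0.06, and of the 1027 olfactory receptor symbols themselves 70.5% were, with a median of -0.05. After median centring and cyclic loess the share of the 6438 symbols was 53.9% and 54.2%, with medians of -0.01. Between the 95th and 99th percentile all 9 receptor genes were below 0 (8 under either other scaling), with a median of -0.12. All 2316 symbols of that range had a median of -0.09, and 83.5% were below 0 (70.3% after median centring and 63.5% after cyclic loess). Above the 99th percentile, where the median over 11184 symbols was 0.03, the 4 receptor genes stood at -0.22 (Gria2), -0.18 (Gabbr1), -0.01 (Grin2d) and 0.05 (Grik5).

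**Figure D3:**
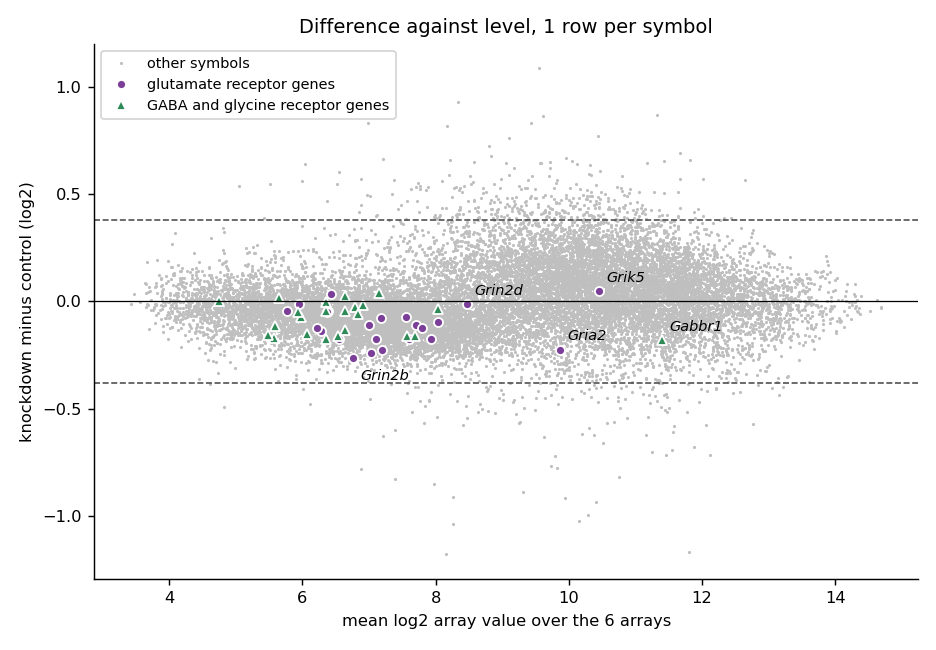
Difference between knockdown and control (log2, vertical axis) against the mean level over the 6 arrays (log2, horizontal axis) for 19938 symbols (grey), glutamate receptor genes (purple circles) and GABA and glycine receptor genes (green triangles); dashed lines mark 1.3-fold. Most receptor genes stand at low levels, where the grey points also lie slightly below 0, and none crosses a dashed line.

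AMPA receptors are tetramers of the products of Gria1 to Gria4. Gria2 read 10.28, 9.82 and 9.83 on control arrays and 10.25, 9.53 and 9.47 on knockdown arrays. Replicate 1 was high in both groups, which overlapped, and the spread was the widest of the 46 genes (SD 0.27 in control and 0.43 in knockdown, n = 3). The difference of -0.22 ± 0.20 (SE) had a limma adjusted p of 0.549. With the replicate number as a block it was 0.0672, at a difference that stayed below the fold cut-off. Without replicate 1 of both groups, an alternative chosen after seeing the data, the difference was -0.32 (limma adjusted p = 0.0728), again below it. Gria1 read 6.71, 6.62 and 6.56 against 6.38, 6.44 and 6.54, a difference of -0.18 ± 0.07 (SE, limma adjusted p = 0.228). Its groups did not overlap, although the replicate 3 arrays nearly met. Gria3 and Gria4, at levels of 5.76 and 6.28, differed by -0.04 and -0.14, and their groups overlapped. All 4 AMPA genes were below 0 (3 of them after median centring).

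Kainate receptors combine subunits of the Grik1 to Grik3 class with those of Grik4 and Grik5. Grik5, at a high level, read 10.41, 10.45 and 10.42 in control and 10.49, 10.50 and 10.44 in knockdown cells, with SDs of 0.02 and 0.03 (n = 3). The groups overlapped and the difference was 0.05 (95% confidence interval -0.09 to 0.19). Grik3 read 7.74, 7.80 and 7.75 against 7.59, 7.65 and 7.72, so all knockdown arrays were lower, with a mean difference of -0.11 (limma adjusted p = 0.370). Grik1, Grik2 and Grik4 lay below the gauge and differed by -0.01, -0.05 and -0.08, all with overlapping groups. The kainate median was -0.05, and it turned to 0.00 and 0.01 under median centring and cyclic loess.

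The delta receptor gene Grid1 encodes a subunit that resembles the ionotropic glutamate receptors but acts mainly as a synaptic adhesion protein. It read 7.28, 7.30 and 7.33 in control and 7.06, 7.10 and 7.07 in knockdown cells. The groups were clearly apart, and the SDs were 0.03 and 0.02 (n = 3). The difference of -0.23 ± 0.06 (SE), or -14.5%, had the lowest adjusted p of the 46 genes (limma adjusted p = 0.101, or 0.0338 with the replicate number as a block). It stayed within the fold cut-off in each fit, and the mean of 7.19 was below the gauge.

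NMDA receptors are assembled from an obligatory glycine-binding subunit and subunits of the Grin2 and Grin3 groups. Grin2b, which encodes a subunit typical of the young forebrain, read 6.91, 7.04 and 6.71 in control and 6.51, 6.64 and 6.71 in knockdown cells. Its replicate 3 was the same in both groups to 2 decimals, so the groups touched. The difference of -0.27 ± 0.09 (SE) was the largest of the 46 genes (limma adjusted p = 0.177, or 0.0620 with the block). Grin3a, whose product binds glycine and lowers calcium entry, read 7.23, 7.12 and 7.08 against 6.96, 7.03 and 6.71. These groups did not overlap, and the difference was -0.24 ± 0.09 (SE, limma adjusted p = 0.202, or 0.0455 with the block). Both genes lay below the gauge.

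Among the NMDA genes above the gauge, Grin2d read 8.44, 8.44 and 8.55 in control and 8.44, 8.48 and 8.47 in knockdown cells. Its groups overlapped fully, at a difference of -0.01 (95% confidence interval -0.16 to 0.13). Grin2c, a subunit gene used largely by cerebellar granule cells, read 7.65, 7.76 and 7.66 against 7.53, 7.39 and 7.63. All of its knockdown arrays were lower, with a mean difference of -0.17 (limma adjusted p = 0.255). Grin3b differed by -0.12 and Grin2a by -0.05, with overlapping groups. All 6 NMDA genes were below 0, a count of 5 after median centring and 4 after cyclic loess, where Grin2d and Grin2a turned.

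Metabotropic glutamate receptors fall into a class that raises calcium (here Grm5) and classes that lower cyclic AMP (Grm2 and Grm3, and Grm4, Grm6, Grm7 and Grm8). Grm4, a presynaptic receptor gene, read 8.11, 7.99 and 7.98 in control and 7.76, 7.84 and 7.95 in knockdown cells. The groups did not overlap, although the difference within replicate 3 was only -0.03. Its difference was -0.18 ± 0.08 (SE, limma adjusted p = 0.239), and it was -0.09 when replicate 1 of both groups was left out. Grm2, at 7.99, 8.16 and 8.10 against 7.89, 8.01 and 8.05, differed by -0.10 with overlap. Grm5 and Grm3 differed by -0.17 and -0.12, Grm7 and Grm6 by -0.11 and -0.07, and Grm8 by 0.03. Under each scaling 6 of the 7 were below 0, Grm8 being the exception.

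GABA-A receptors are pentamers, most often of alpha, beta and gamma subunits, and the alpha subunit sets much of their response to benzodiazepines. None of the 5 alpha genes was above the gauge. Gabra5 had the highest value, at 6.78, 6.84 and 6.80 in control and 6.72, 6.82 and 6.79 in knockdown cells, with overlap and a difference of -0.03. Gabra3, which had the largest difference of the alpha genes, read 6.47, 6.28 and 6.58 against 6.43, 6.20 and 6.18. Its groups overlapped and the difference was -0.17 ± 0.10 (SE, limma adjusted p = 0.343). Gabra2 read 5.80, 5.65 and 5.52 against 5.59, 5.42 and 5.45, a difference of -0.17 (limma adjusted p = 0.299, or 0.0926 with the block). Gabra4 and Gabra6 differed by -0.00 and -0.07. All 5 were below 0, but only 3 were after median centring or cyclic loess, when Gabra4 and Gabra5 turned.

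The beta subunits carry part of the GABA-binding site and the gamma subunits anchor receptors at synapses. Gabrb1 and Gabrb2 differed by 0.01 and 0.02 and were above 0 under each scaling. Gabrb2 had 3 array rows. The row used read 6.62, 6.53 and 6.71 against 6.54, 6.60 and 6.80, and the remaining rows, at levels of 5.30 and 5.04, differed by -0.03 and -0.16. Gabrb2 turned below 0 with the mean of its rows, as it did without control replicate 2 or without knockdown replicate 3. Gabrg3 read 7.004, 6.79 and 6.81 against 6.80, 6.78 and 6.83, where control replicate 1 stood apart, and differed by -0.06 (it turned above 0 after cyclic loess or without control replicate 1). Gabrg1 read 5.60, 5.56 and 5.76 against 5.54, 5.44 and 5.60 and differed by -0.11 with overlap.

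Other GABA-A subunits replace gamma in part of the receptors. Gabrd, the delta subunit of receptors outside synapses, read 7.93, 8.11 and 8.11 in control and 7.97, 8.04 and 8.04 in knockdown cells, with a difference of -0.04 that turned above 0 under median centring and cyclic loess. The theta subunit gene Gabrq read 6.59, 6.70 and 6.55 against 6.43, 6.42 and 6.51. All of its knockdown arrays were lower, with a mean difference of -0.16 ± 0.07 (SE, limma adjusted p = 0.240). Gabre and Gabrp, the epsilon and pi subunit genes, differed by -0.05 and -0.02. The rho subunits form GABA-gated channels of the retina. Gabrr2 read 7.75, 7.63 and 7.56 against 7.44, 7.37 and 7.65 and differed by -0.16 with overlap (limma adjusted p = 0.329), while Gabrr1 and Gabrr3 differed by 0.04 and -0.04. The medians of the other GABA-A and rho genes, both -0.04, turned to 0.01 under median centring and to 0.01 and 0.02 after cyclic loess.

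Both genes of the GABA-B receptor were above the gauge, and neither showed overlap between the groups. Gabbr1 read 11.46, 11.46 and 11.55 in control and 11.28, 11.30 and 11.35 in knockdown cells. All control arrays stood above all knockdown arrays, and the SDs were 0.05 and 0.03 (n = 3). Its difference of -0.18 ± 0.06 (SE), or -11.8%, had a limma adjusted p of 0.174, or 0.0643 with the replicate number as a block. Gabbr2 read 7.80, 7.81 and 7.71 against 7.61, 7.55 and 7.68, where the third arrays of the groups nearly met. The difference was -0.16 ± 0.07 (SE, limma adjusted p = 0.228). Both were below 0 under each scaling, and neither reached the fold cut-off.

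Glycine receptors are chloride channels of alpha subunits (Glra1 to Glra4) with the beta subunit (Glrb) that ties them to the scaffold protein gephyrin. Their levels, from 4.74 to 6.63, were all below the gauge. Glra2, the alpha subunit gene of immature neurons, read 5.61, 5.49 and 5.60 in control and 5.46, 5.36 and 5.42 in knockdown cells. The groups did not overlap, at a difference of -0.15 ± 0.07 (SE, limma adjusted p = 0.243, or 0.0989 with the block). Glra4 read 6.70, 6.65 and 6.75 against 6.52, 6.57 and 6.61, again without overlap, and differed by -0.13 (limma adjusted p = 0.289). Glrb, Glra1 and Glra3 differed by -0.15, -0.04 and 0.00. Of the 5 genes 4 were below 0, or 3 under median centring and cyclic loess.

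When arrays of the same number were compared, 24 of the 46 receptor genes were lower in all 3 pairs (background 29.3%) and 1 was higher in all 3 (background 23.7%). The gene that was higher in each pair was Grik5, by 0.08, 0.05 and 0.02. With the number as a block and without the fold cut-off, 7 of 46 (15.2%) reached an adjusted p under 0.1 on the lower side, where the background was 10.6%, and none on the higher side, where it was 12.2%. The 7 genes were Grid1, Grin3a, Grin2b, Gabbr1, Gria2, Gabra2 and Glra2, and 5 of them were below the gauge. The pairs of Gabbr1 were even, at -0.18, -0.16 and -0.20, as were those of Glra2, at -0.15, -0.13 and -0.18, and of Grid1, at -0.22, -0.19 and -0.26. The pairs of Gria2 were uneven, at -0.03, -0.29 and -0.35, as were those of Grin2b, at -0.40, -0.40 and -0.00. These counts use the deposited scale, and the background varied with level. Lower in all 3 pairs were 1967 of 6438 symbols not above the gauge (receptor genes 16 of 33). Between the 95th and 99th percentile they were 1064 of 2316 (6 of 9), and above it 2812 of 11184 (2 of 4). Those reaching the block threshold on the lower side were 8.45%, 15.7% and 10.9% of the symbols (receptor genes 15.2%, 0% and 50%). The background on the higher side came mostly from high levels. Higher in all 3 pairs were 388 of the 6438 symbols, 152 of the 2316 and 4187 of the 11184. The block threshold was reached on the higher side by 106, 81 and 2248 of them.

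**Figure D4:**
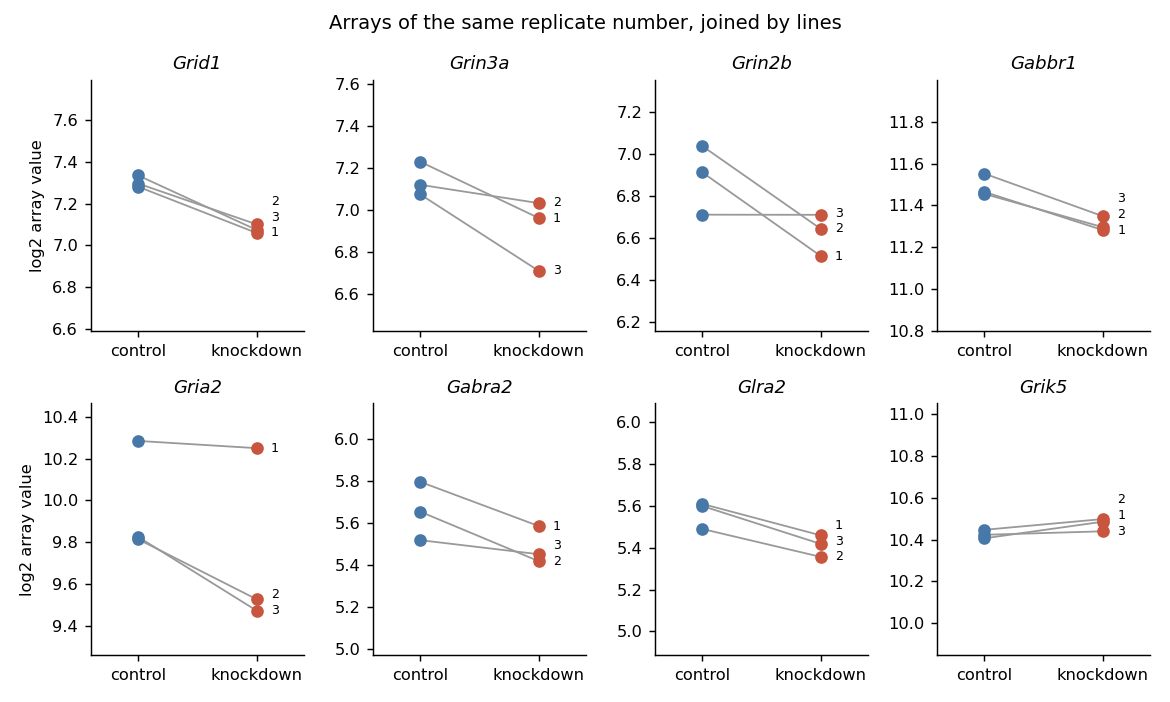
Log2 array values (vertical axes, each spanning the same range) of the 7 receptor genes with an adjusted p under 0.1 in the fit with the replicate number as a block, and of Grik5; lines join control (blue) and knockdown (red) arrays of the same number, printed at the right (shifted upwards where points are close). Gabbr1 and Grid1 are lower by similar amounts in the 3 pairs, Gria2 replicate 1 lies far above the other arrays in both groups, and Grik5 is slightly higher in each pair.

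The proteins that carry, anchor and supply these receptors were measured next to them. Of 87 such genes measured, 3 were called, 2 lower and 1 higher, where the background was 0.657% lower and 1.35% higher. All 3 calls were lost under the variance filter of the methods (limma adjusted p from 0.275 to 0.309) and when rows without a symbol or with several were tested as well (0.103 to 0.149). In the list of glutamate receptor auxiliary and scaffold genes, 35 of 36 were measured, 31 lay above the gauge, and 1 fell and 1 rose. Shisa7, which encodes a transmembrane partner known from AMPA and GABA-A receptors, read 10.00, 9.95 and 9.90 in control and 9.48, 9.50 and 9.57 in knockdown cells. The groups were well apart and Shisa7 fell by 0.43 ± 0.06 (SE, limma adjusted p = 0.0187). Nsf, an ATPase of membrane fusion that also binds the Gria2 product, read 10.98, 11.001 and 10.93 against 11.41, 11.37 and 11.28. It rose by 0.38 ± 0.07 (SE, limma adjusted p = 0.0266), just past the fold cut-off, and was not called without control replicate 2, control replicate 3, knockdown replicate 1 or knockdown replicate 2 (limma adjusted p from 0.0707 to 0.117), nor after cyclic loess, where the difference was 0.35.

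The median of the auxiliary and scaffold list was -0.10. Of the 6 measured genes of transmembrane AMPA receptor regulatory proteins, 5 lay above the gauge, from 8.78 for Cacng2 to 12.96 for Cacng3, and Cacng5 (7.19) did not. Their differences ran from -0.23 for Cacng2 to 0.05 for Cacng7, and none was called. The scaffold gene Dlg4, whose product PSD-95 organises the postsynaptic density, differed by -0.00. Its relative Dlg3 differed by 0.28 (limma adjusted p = 0.0993), short of the fold cut-off. The AMPA receptor chaperone gene Cnih2 differed by -0.29 (limma adjusted p = 0.186, or 0.0178 with the block), also short of it.

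Of 20 genes for anchoring and trafficking of GABA and glycine receptors, 19 were measured, 17 lay above the gauge and 1 was called. Gabarapl2, a small ubiquitin-like protein gene best known from autophagy and Golgi transport, read 13.15, 13.30 and 13.31 in control and 12.78, 12.91 and 12.86 in knockdown cells. It fell by 0.40 ± 0.07 (SE, limma adjusted p = 0.0342), without overlap. A second Gabarapl2 row, at 7.55, 7.33 and 7.53 against 7.34, 7.21 and 7.19, was not called (limma adjusted p = 0.189). The call was lost without control replicate 2, control replicate 3, knockdown replicate 1 or knockdown replicate 2, where the difference ran from -0.44 to -0.37 and the limma adjusted p from 0.0801 to 0.159, and it was lost after median centring, at -0.35, and with the mean of its rows, at -0.31. Gphn, the gephyrin gene, differed by 0.04 at a level of 11.53, and Gabarap, which links GABA-A receptors to the cytoskeleton, by -0.07 at 13.26. The inhibitory synapse adhesion gene Nlgn2 differed by -0.28 (limma adjusted p = 0.0763), below the fold cut-off. The list median was -0.10.

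None of the 19 measured transporter genes (of 20) was called, and their median was -0.11. The chloride transporter genes Slc12a2 and Slc12a5, whose products set whether GABA excites or inhibits a neuron, differed by 0.12 and 0.09, both with overlap. Values below or just above the gauge were found for the vesicular glutamate transporter genes Slc17a6 (6.48) and Slc17a7 (7.65). The glycine transporter gene Slc6a9 had a mean of 12.16 and differed by -0.17 (limma adjusted p = 0.279).

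The 14 measured enzyme genes (of 16) for glutamate, GABA and glycine had a median of 0.12, on the opposite side from the receptors. Of the 14, 6 (42.9%) were below 0 (3 after median centring and 4 after cyclic loess). Their median level was 9.72 and 13 lay above the gauge, where most receptor genes did not. Of all 11184 symbols above the 99th percentile, 42.7% were below 0, with a median of 0.03. That share was 31.4% after median centring and 46.4% after cyclic loess. The contrast with the receptors was not tested at matched levels. None of the 14 enzyme genes was called. Glud1, encoding glutamate dehydrogenase, read 10.72, 10.88 and 10.94 against 11.23, 11.20 and 11.18, with a difference of 0.36 (limma adjusted p = 0.05003) just short of the fold cut-off. Aldh5a1, whose product completes the breakdown of GABA, differed by 0.35 (limma adjusted p = 0.0975), also short of it. The GABA-synthesising enzyme genes Gad1 and Gad2 differed by -0.14 and -0.05, with overlapping groups.

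**Figure D5:**
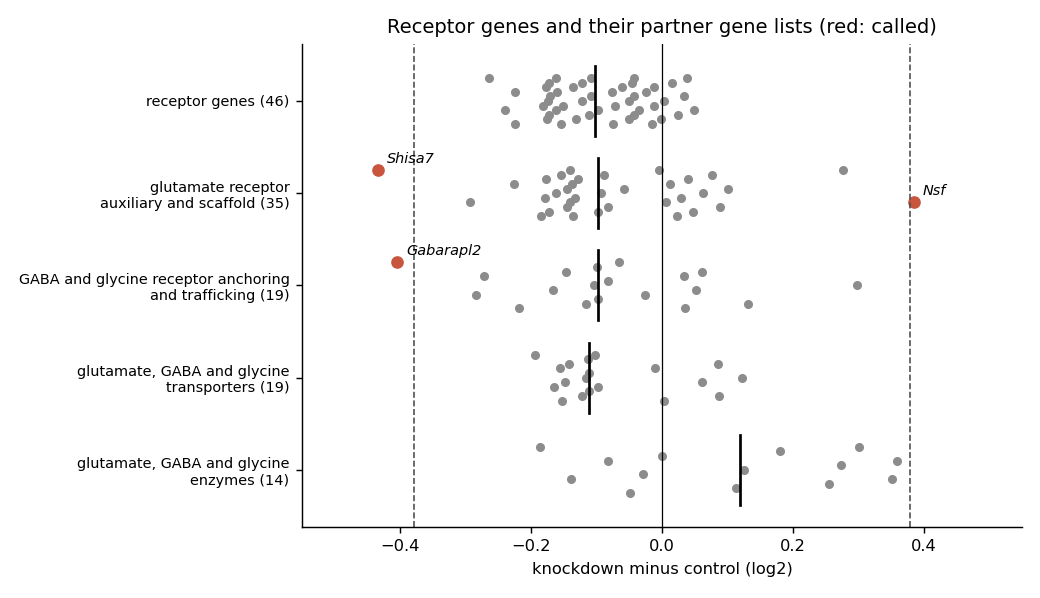
Difference between knockdown and control (log2, horizontal axis) for the 46 receptor genes and for 4 lists of partner genes (vertical axis, number of measured genes in parentheses); each point is a gene, thick bars are list medians, dashed lines mark 1.3-fold and called genes are red and named. Shisa7, Gabarapl2 and Nsf are called; the medians are -0.10 for the receptors and between -0.11 and 0.12 for the lists.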

How the data were processed

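Pou3f3 knockdown and control N2A cells were each profiled on 3 Affymetrix Mouse Gene 1.0 ST arrays from 200 ng of total RNA. Per the study's methods, the authors applied RMA background correction, quantile normalised the arrays and summarised probes at the gene level, and the deposited values are log2. The submitters' processing notes name limma and RMA without versions. Quantile normalisation hides a shift common to most transcripts, and 3 arrays a group limit the precision.

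Gene names came from the platform annotation. Of 35556 rows, 21789 had 1 symbol, 1621 had several and 12146 were not listed. All 46 receptor genes matched the RefSeq table by Entrez identifier. The 21789 rows were fitted in R 4.3.3 with limma 3.58.1 (lmFit, eBayes, two-sided, Benjamini-Hochberg adjustment), and calls required both an adjusted p below 0.1 and a change of 1.3-fold or more. The fit was tested on simulated data. The study's variance filter was an alternative, since it leaves low-variance receptor genes without a p. Backgrounds count 1 row for each of 19938 symbols.

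Replicate numbers come from the sample titles. Deviations from the group mean correlated at 0.64, 0.31 and 0.29 between arrays of the same number. Between arrays of different numbers the correlations ran from -0.48 to 0.25, so only replicate 1 stood well apart. The numbers were taken to pair the arrays. Named with values were receptor genes without overlap between groups at an unadjusted p under 0.05, those with the highest level or largest difference of each family, called partner genes and Pou3f3, and further genes were named after their values were seen. The receptor genes, partner lists and markers were chosen with earlier results of these data known.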

Additional observations from a re-analysis of the deposited data

How the results depend on the processing

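No receptor gene was called lower or higher under any of the 16 alternatives, the replicate block included, where both counts were 0 and the count of partner genes called was 3. Beside the marker Th, the block changed no call among the genes named, and with it 499 symbols were called in place of 400. The median over the receptor genes, -0.10, was -0.17 under the variance filter of the methods (14 of 46 genes tested). It was also -0.17 under the same filter on rows with 1 symbol (18 tested). All 14 and all 18 genes kept were below 0, against 40 of 46 in the main fit. The filtered medians thus describe a selected subset. After cyclic loess the median was -0.0397. The cause of these shifts was not tested. The median ran from -0.13 to -0.07 when 1 array was left out. It was -0.09 without replicate 1 of both groups, an alternative chosen after seeing the data. The count of partner genes called, 3, was 0 under the filter of the methods, 0 with all rows tested and 7 without the fold cut-off. Why the calls were lost was not tested. On leaving out 1 array the count of partner genes ran from 1 (without control replicate 2, control replicate 3 or knockdown replicate 2) to 5 (without control replicate 1). Over all symbols, 400 were called, against 10 under the filter of the methods, 23 with all rows, 908 without the fold cut-off and 132 (without knockdown replicate 2) to 558 (without control replicate 1) on leaving out 1 array. Of the calls, 67.2% were higher, and 83.4% were after median centring. The gauge was passed by 13 receptor genes, by 4 at the 99th percentile and by 28 with vomeronasal rows. Of 371 combinations of a named gene and an alternative, 339 kept their side of the thresholds or moved by less than 1 SD, 14 moved further and 18 lost a call, all of Shisa7, Nsf or Gabarapl2, and no call changed its direction.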
